A study of Mus musculus with 50 samples.

Results

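The genes described here coat hepatic lipid droplets, fuse them, or control the breakdown of the triglyceride inside them. All 10 genes of the set (Plin2, Plin3, Plin4, Plin5, Cidea, Cideb, Cidec, Pnpla2, G0s2 and Hilpda) were found by gene symbol among 30751 named genes of the array, each with 1 probe. Levels were measured in liver of CD-1 mice, an outbred strain, on gestational day 17.5, in a piece of the left lateral lobe of dams and in livers of their fetuses. Dams had received a daily gavage from embryonic day 1.5 onward of vehicle (0 mg/kg/day, called control), PFOA at 1 or 5 mg/kg/day (PFOA1, PFOA5) or GenX at 2 or 10 mg/kg/day (GenX2, GenX10). PFOA (perfluorooctanoic acid) and GenX (HFPO-DA) are both fully fluorinated carboxylic acids, and GenX carries an ether oxygen in its chain. Maternal groups had 5 arrays each. Fetal groups had 5 arrays, except PFOA5 with 6 and GenX10 with 4, and the labels describe the fetuses as females, picked at random within a litter. No fetus received a dose itself, so fetal exposure was that of its dam. The doses of the compounds differ, so no test was made between compounds.

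A lipid droplet is a core of triglyceride and cholesteryl ester inside a phospholipid monolayer covered by proteins. Perilipins (Plin genes) coat it and limit access to the core, CIDE proteins (Cidea, Cideb, Cidec) sit at droplet contacts and move lipid into the larger droplet, and adipose triglyceride lipase (encoded by Pnpla2) makes the first cut in triglyceride. G0S2 and HILPDA are small proteins that bind and inhibit that lipase. In liver several of these genes are known targets of PPARα, a fatty acid sensing nuclear receptor, and Hilpda was named for its induction by hypoxia.

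In mouse build GRCm38.p6 the RefSeq spans of the genes are chr4:86626910-86670217 for Plin2, chr17:56278962-56290511 for Plin3, chr17:56100587-56109948 for Plin4, chr17:56111597-56117606 for Plin5, chr14:55754052-55758424 for Cideb, chr6:113424634-113435760 for Cidec, chr7:141455188-141460743 for Pnpla2, chr1:193272160-193273188 for G0s2 and chr6:29272488-29275449 for Hilpda. Plin4 and Plin5 are neighbours. RefSeq promoter windows of GRCm38.p6 were found for 9 of the 10 genes (12 windows, some genes having more than 1 start site), and the 250 bases before each start site were searched on both strands. The sequences shown are of 4 genes that moved in these data, Plin2, Hilpda and G0s2 in both tissues and Pnpla2 in dams. They run 5′ to 3′ on the strand of the gene, and capitals mark AGGTCA in Plin2 (on the other strand, so it reads as its reverse complement), ACGTG in Hilpda and, in G0s2, GCGTG. The Plin2 stretch (chr4:86670218-86670309, minus strand) is the part of its window outside the gene, and the Hilpda stretch (chr6:29272570-29272599, plus strand) lies before the second of its start sites and inside the span of the gene. The G0s2 window is chr1:193273189-193273438 on the minus strand, and the Pnpla2 window chr7:141454938-141455187 on the plus strand.
Plin2: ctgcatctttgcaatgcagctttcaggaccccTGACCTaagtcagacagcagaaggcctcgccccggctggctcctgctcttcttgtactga
Hilpda: ggatggccagcggACGTGccccagggcgag
G0s2: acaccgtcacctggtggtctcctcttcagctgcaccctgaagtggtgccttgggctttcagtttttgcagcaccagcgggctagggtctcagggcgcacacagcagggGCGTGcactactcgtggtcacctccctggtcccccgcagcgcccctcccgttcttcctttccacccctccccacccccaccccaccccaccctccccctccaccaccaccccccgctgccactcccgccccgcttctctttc
Pnpla2: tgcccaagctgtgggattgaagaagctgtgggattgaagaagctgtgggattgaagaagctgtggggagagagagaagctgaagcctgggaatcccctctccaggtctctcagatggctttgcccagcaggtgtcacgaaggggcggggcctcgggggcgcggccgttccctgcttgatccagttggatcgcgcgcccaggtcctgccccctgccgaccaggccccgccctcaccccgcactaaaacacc

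AGGTCA, the 6-base element read by PPARα and other nuclear receptors, was present in the windows of Plin2 and Plin5 and in 14% of all 32851 windows. A direct repeat of it with 1 base between the copies, the form that PPARα and RXR bind as a pair, was found in 0.0335% of all windows and in none of these 12. ACGTG, the core of the hypoxia response element, was held by a Hilpda window and by 16.6% of all windows, and GCGTG, its other form, by windows of Plin2, Plin5, Cidec, G0s2 and Hilpda and by 28.2% of all. These matches describe letters in a short stretch and do not show binding.

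Per array, 4395 to 7490 genes lay above the 95th percentile of the negative controls, which was 7.37 to 8.18 (log2), and a level at or below it is called dim here. The fetal control arrays had negative control percentiles of 7.86 to 7.94, above the 7.71 to 7.80 of fetal PFOA1. In whole tissue fewer cells of a type and less RNA per cell cannot be told apart. All 8 hepatocyte markers analysed (Alb and Ttr among them) were above background in every group. Of these, 1 rose and 2 fell in maternal PFOA5, 1 rose in GenX2, and 1 rose and 1 fell in GenX10, Rbp4 by -0.36 in PFOA5 (adjusted p = 4.1e-05) and Ttr by 0.27 in GenX2 (0.0086). In fetal liver 1 rose in PFOA1, 1 rose and 1 fell in GenX2 and 1 fell in GenX10. Of all genes 19.9%, 3.37% and 13.8% were called in these maternal groups, and 0.953%, 6.73% and 9.28% in these fetal groups. The adipocyte markers Adipoq, Plin1, Lep and Retn were dim in all groups, and all 6 erythroid markers analysed were higher in fetal than in maternal control liver, with a median difference of 3.02 (log2). The summed adipocyte marker signal was 10.29 to 10.67 (log2) in maternal controls, where Pck1 was the only 1 of 7 above background. It was 10.46 to 10.81 in maternal PFOA5, 9.91 to 11.29 in GenX2 and 10.38 to 11.26 in GenX10. Of the 7 adipocyte markers 2, Fabp4 and Lipe, rose in maternal PFOA5 and in GenX10. Of 8 macrophage markers, 3 rose in maternal PFOA5 (19.9% of all genes were called there) and 1 in maternal GenX10 (13.8%), while 1, 1 and 2 fell in fetal PFOA5, GenX2 and GenX10 (3.39%, 6.73% and 9.28%), with Csf1r at -0.28, -0.27 and -0.31. Their summed signal was 9.84 to 10.65 in maternal controls, 9.99 to 10.87 in PFOA5 and 10.33 to 10.94 in GenX10, and in fetuses 10.50 to 10.76 in controls and 10.32 to 10.85 over PFOA5, GenX2 and GenX10. Of 7 stellate cell markers, 2 fell in maternal PFOA5 (19.9% of all genes were called) and 1 rose and 1 fell in maternal GenX10 (13.8%). In fetal liver 1 fell in PFOA1 (0.953%), and 1 rose and 1 fell in PFOA5 (3.39%). In fetal GenX2 (6.73%) 1 rose and 2 fell, and in fetal GenX10 (9.28%) 2 fell. Plin2 and Hilpda rose in every exposed fetal group. Reln was 1 of the 2 stellate markers that fell in maternal PFOA5, by -0.83. It also fell in every exposed fetal group, by -0.40, -0.63, -0.51 and -0.45, while other markers of the list rose in some of these groups. The summed stellate signal was 10.37 to 10.51 in fetal controls and overlapped with this at 10.17 to 10.61 over the exposed fetal groups. Lrat, Colec11 and Hand2 were dim on every fetal array. The part of these cells in the results was not tested. On 2 fetal arrays (control replicate 3 and GenX2 replicate 2) Xist was dim, at 5.39 and 4.50 against 10.52 to 11.48 on the others, although fetuses were described as female. The Y-linked gene Eif2s3y read 6.49 and 6.10 on these 2 arrays and 3.63 to 3.80 on the other fetal arrays, all dim. The sex of the fetuses was not tested. For another 2 (PFOA5 replicate 6 and GenX2 replicate 5) 1 label names another group.

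Against controls, the exposures raised members of the set and lowered none. In maternal liver 6 of 10 were called higher in PFOA5 (19.9% of all genes were called in either direction), 7 in GenX10 (13.8% of all genes), 2 in GenX2 (3.37%) and 0 in PFOA1 (0.0325%), where 2 had an unadjusted p under 0.05. In fetal liver 2 were called in PFOA1 (0.953% of all genes), 3 in PFOA5 (3.39%), 3 in GenX2 (6.73%) and 2 in GenX10 (9.28%). A gene was called when limma's Benjamini-Hochberg adjusted p over all genes was under 0.05. The median difference over the 10 genes was 0.10, 0.66, 0.41 and 0.97 (log2) in maternal PFOA1, PFOA5, GenX2 and GenX10, and 0.26, 0.41, 0.20 and 0.27 in the fetal groups in the same order. Over all genes these medians lay between -0.06 and 0.02. Plin2 was called in 7 of the 8 comparisons and Hilpda in 6, while Plin3 and Plin4 were called in none. The 4 comparisons within a tissue share their control arrays.

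**Figure D1:**
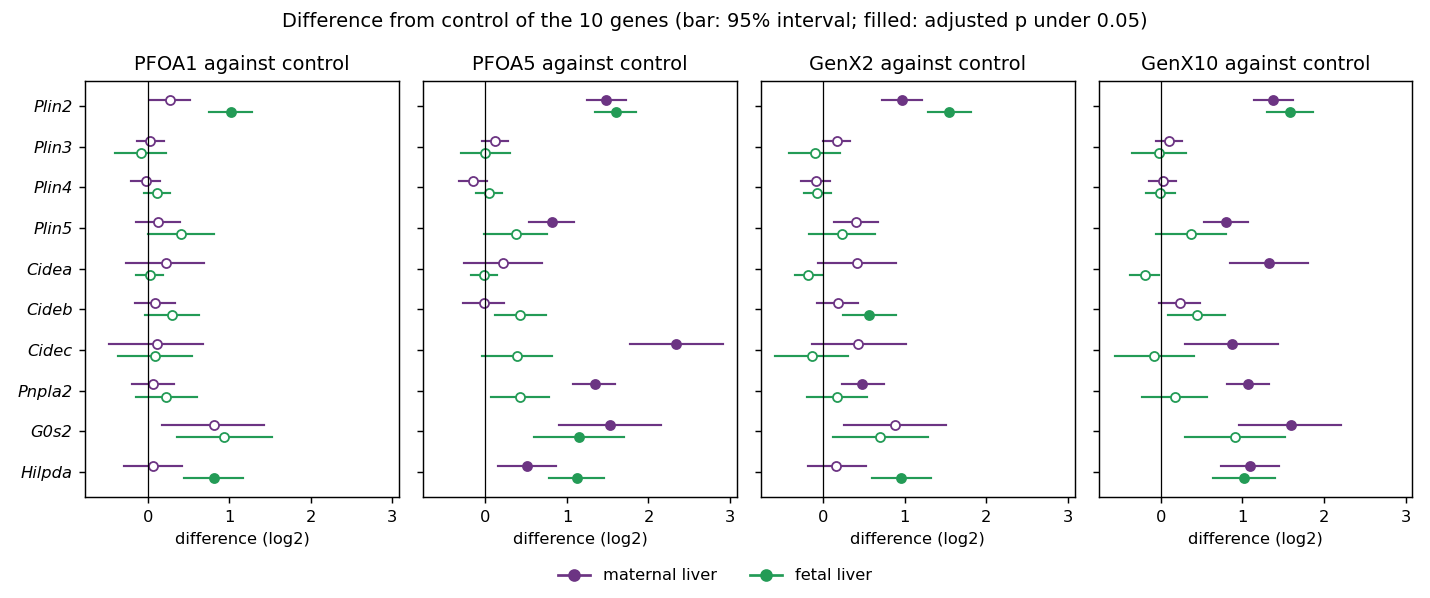
Difference from control (log2, horizontal axis) of each of the 10 genes (vertical axis) for each exposure, in maternal (purple) and fetal (green) liver, with 95% intervals; filled points have an adjusted p under 0.05. Plin2 stands to the right of 0 in every panel, and Cidec in maternal PFOA5 is drawn at 2.34 against controls that were dim on every array.

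Plin2, the main coat protein of droplets in hepatocytes, rose in every group but maternal PFOA1. Its level in maternal controls was 10.33, 9.95, 10.10, 10.33 and 10.17 (log2) on the 5 arrays, and in maternal PFOA1 9.99, 10.55, 10.56, 10.38 and 10.76. Those groups overlapped, with replicate 1 of PFOA1 inside the control range. The difference in PFOA1 was 0.27 ± 0.12 (SE, n = 5 and 5, adjusted p = 0.96).

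In maternal PFOA5 Plin2 read 11.47, 11.72, 11.54, 11.78 and 11.74, and in GenX10 11.71, 11.48, 11.62, 11.58 and 11.36. Maternal GenX2 lay between these and the controls, at 11.35, 10.98, 11.32, 11.2 and 10.85. None of these 3 groups overlapped the controls. The rises were 1.48 ± 0.12 (SE, 2.78-fold, adjusted p = 5.6e-09) in PFOA5, 0.97 ± 0.12 (1.95-fold, 1.4e-05) in GenX2 and 1.38 ± 0.12 (2.60-fold, 2.3e-08) in GenX10.

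Fetal control livers had Plin2 levels of 9.15, 9.31, 9.18, 9.41 and 9.22. At the low PFOA dose, where dams showed no call, the fetal arrays read 10.37, 10.02, 10.26, 10.12 and 10.58. Every exposed fetal array stood above every fetal control. Fetal PFOA5 ran from 10.32 over a median of 10.94 to 11.17 (6 arrays), GenX2 read 10.76, 10.67, 10.72, 10.80 and 11.02, and GenX10 10.93, 10.82, 10.81 and 10.79. The rises were 1.02 ± 0.13 (2.03-fold, adjusted p = 2.2e-05) in PFOA1, 1.60 ± 0.12 (3.02-fold, 2.8e-09) in PFOA5, 1.54 ± 0.13 (2.92-fold, 1.0e-08) in GenX2 and 1.58 ± 0.14 (3.0-fold, 1.7e-08) in GenX10. The last 3 values differ by less than their errors.

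**Figure D2:**
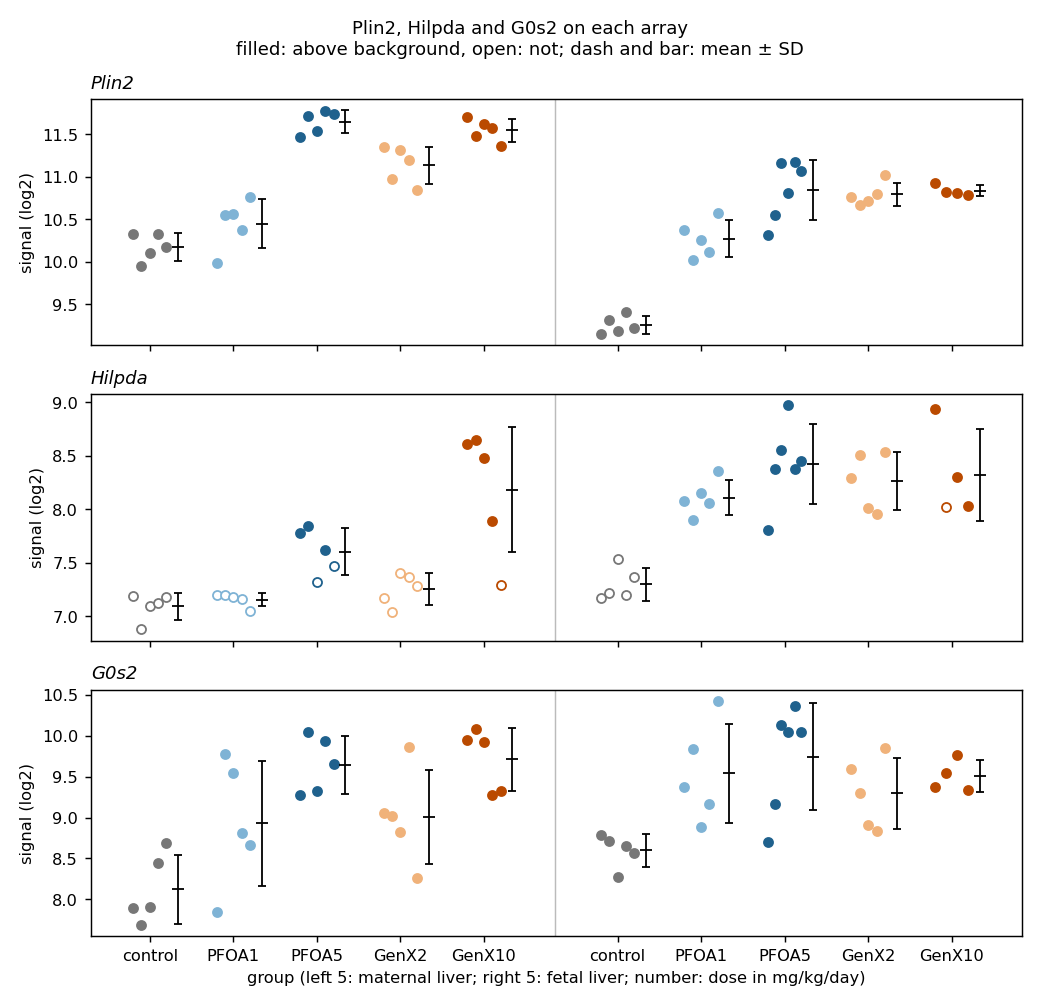
Signal (log2, vertical axis) of Plin2, Hilpda and G0s2 on each array of the 10 groups (horizontal axis; maternal left, fetal right); points are arrays, filled where above background, and the dash with bar is the mean ± SD. For Plin2 the fetal controls lie at 9.15 to 9.41 and all exposed fetal arrays at 10.02 or above.

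Plin5, the perilipin of oxidative tissues that ties droplets to mitochondria, rose in dams at the higher doses. Maternal controls were at 7.78, 7.50, 7.62, 7.90 and 7.72, PFOA5 at 8.24, 8.70, 8.44, 8.47 and 8.74, and GenX10 at 8.61, 8.89, 8.25, 8.34 and 8.44. Neither exposed group overlapped the controls, of which 3 of 5 arrays were above background. The rise was 0.82 ± 0.13 (SE, adjusted p = 9.0e-05) in PFOA5 and 0.80 ± 0.13 (0.00017) in GenX10. In maternal GenX2 the difference was 0.40 ± 0.13 (adjusted p = 0.11). Fetal differences were 0.41, 0.37, 0.23 and 0.37 in PFOA1, PFOA5, GenX2 and GenX10, with adjusted p between 0.25 and 0.64.

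Plin3, a perilipin that is found in most tissues and moves from cytosol to growing droplets, had maternal group means from 7.94 to 8.11 and fetal means from 8.16 to 8.26. Its largest difference from control was 0.17 ± 0.08 (maternal GenX2, adjusted p = 0.28). Plin4, best known from fat tissue, was dim on all 50 arrays, at 6.05 to 6.89, so these arrays give no more than an upper bound for it.

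**Figure D3:**
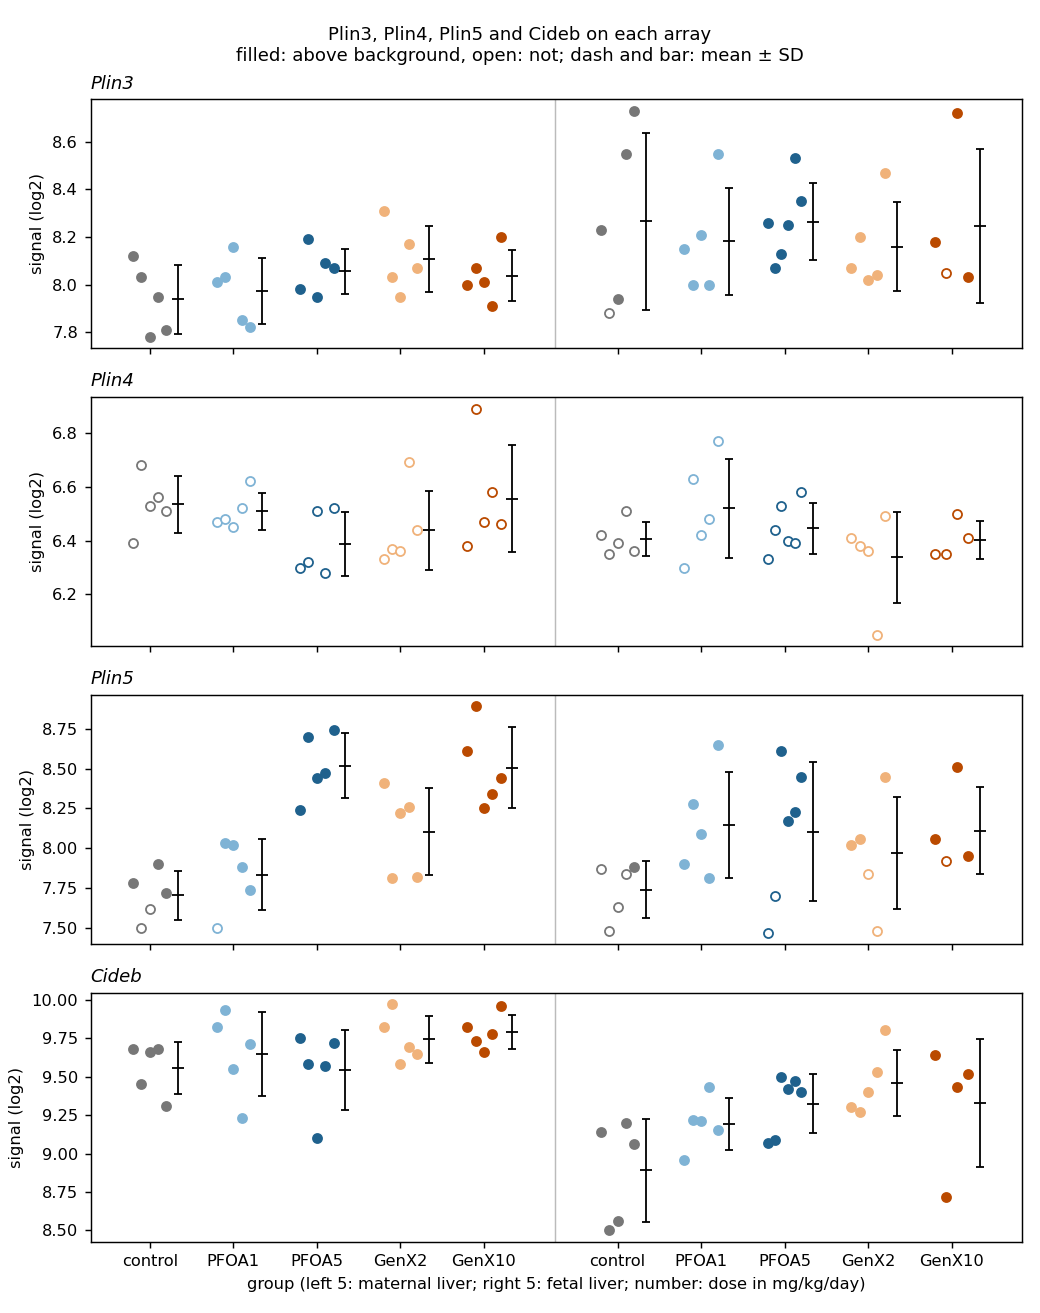
Signal (log2, vertical axis) of Plin3, Plin4, Plin5 and Cideb on each array of the 10 groups (horizontal axis; maternal left, fetal right), with mean ± SD; open points are not above background. Plin4 is open throughout, and maternal Plin5 lies higher in PFOA5 and GenX10 than in controls (7.50 to 7.90).

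Pnpla2, the lipase gene, rose in dams of 3 groups and was called in no fetal group. Its maternal control values were 8.78, 8.25, 8.43, 8.70 and 8.27, and those of PFOA1 8.42, 8.80, 8.63, 8.32 and 8.60, which overlap. PFOA5 read 9.87, 9.76, 9.50, 10.13 and 9.86 and GenX10 9.80, 9.55, 9.50, 9.41 and 9.50, all above the controls. GenX2, at 9.02, 8.81, 9.17, 9.18 and 8.67, overlapped the controls with 1 array. The rises were 1.34 ± 0.12 (SE, 2.53-fold, adjusted p = 4.1e-08) in PFOA5, 1.07 ± 0.12 (2.09-fold, 1.5e-06) in GenX10 and 0.48 ± 0.12 (1.40-fold, 0.028) in GenX2. The GenX2 call was lost without control replicate 2, 3 or 5 or GenX2 replicate 1 or 3 (adjusted p 0.069 to 0.086), after a repeated quantile normalization (0.064) and in a fit of those groups alone (0.084).

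In fetal controls Pnpla2 was dim on all arrays, at 7.47, 7.16, 7.16, 7.73 and 7.71. Fetal PFOA5 spanned 7.51 to 8.45 with a median of 7.80 and was above background on 3 of 6 arrays, and PFOA1, GenX2 and GenX10 on 1 array each. The groups overlapped. The fetal differences were 0.23 ± 0.18, 0.42 ± 0.17, 0.17 ± 0.18 and 0.17 ± 0.19 in PFOA1, PFOA5, GenX2 and GenX10, with adjusted p of 0.87, 0.25, 0.61 and 0.58.

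G0s2, the gene of a direct inhibitor of that lipase, rose in dams at the higher dose of each compound and in fetal PFOA5. Maternal controls were at 7.89, 7.69, 7.91, 8.44 and 8.69, PFOA5 at 9.27, 10.05, 9.32, 9.94 and 9.65, and GenX10 at 9.95, 10.08, 9.93, 9.27 and 9.33. The higher dose groups did not overlap the controls, and their rises were 1.53 ± 0.30 (SE, 2.88-fold, adjusted p = 0.00078) and 1.59 ± 0.30 (3.01-fold, 0.00085). Maternal PFOA1 spread from 7.85 to 9.78 and GenX2 from 8.26 to 9.86, both reaching into the control range, and their differences of 0.81 ± 0.30 and 0.88 ± 0.30 had adjusted p of 0.83 and 0.12.

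Fetal controls had G0s2 levels of 8.79, 8.71, 8.27, 8.65 and 8.57, and fetal PFOA5 ran from 8.70 over a median of 10.05 to 10.37. The rise of 1.15 ± 0.27 (2.22-fold, adjusted p = 0.013) passed the threshold, and the groups overlapped through replicate 1. Without the arrays on which Xist was dim it was 1.07 with an adjusted p of 0.051. Fetal PFOA1, GenX2 and GenX10 lay wholly above the controls, with differences of 0.94 ± 0.28, 0.70 ± 0.28 and 0.91 ± 0.30 and adjusted p of 0.15, 0.16 and 0.055. For GenX10 the threshold was passed with dim genes left out (0.028), with arrays centred on their median (0.034), with array weights (0.044), with the source names followed (0.032) and in a fit of those groups alone (0.0010).

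Hilpda, the other inhibitor gene, rose in all 4 fetal groups. Its fetal controls were dim on every array, at 7.17, 7.22, 7.54, 7.20 and 7.37. PFOA1 read 8.08, 7.90, 8.15, 8.06 and 8.36, GenX2 8.29, 8.51, 8.01, 7.96 and 8.54, and GenX10 8.94, 8.02, 8.30 and 8.03, and PFOA5 ran from 7.81 over a median of 8.42 to 8.97. No exposed fetal array reached down to the controls, and all but GenX10 replicate 2 (8.02) were above background.

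For Hilpda the fetal differences were 0.81 ± 0.17 (SE, adjusted p = 0.016) in PFOA1, 1.12 ± 0.17 (9.0e-05) in PFOA5, 0.96 ± 0.17 (0.00088) in GenX2 and 1.02 ± 0.18 (0.00071) in GenX10. Because the controls were dim, the folds are bounds against the mean 95th percentile of the negative controls on the control arrays. In that order Hilpda was at least 1.16-fold, 1.44-fold, 1.29-fold and 1.35-fold higher, the last from a group mean that includes the dim array. Leaving out control replicate 1 or PFOA1 replicate 5 took the PFOA1 call to an adjusted p of 0.052 or 0.069. Within fetal groups the Hilpda level went with the array's negative control percentile at r = -0.51 (25 arrays, deviations from group means), and its part in the result was not tested.

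In dams Hilpda was dim in controls (7.19, 6.88, 7.10, 7.13 and 7.18), in PFOA1 (7.05 to 7.20) and in GenX2 (7.04 to 7.41). GenX10 read 8.61, 8.65, 8.48, 7.89 and 7.29, with replicate 5 close to the controls, and PFOA5 7.78, 7.84, 7.32, 7.62 and 7.47. Both groups stood above the controls. The rise was 1.09 ± 0.17 (adjusted p = 9.5e-05, at least 1.49-fold) in GenX10 and 0.51 ± 0.17 (0.037) in PFOA5, where 3 of 5 arrays were above background. The PFOA5 call was lost without control replicate 2, 3 or 4 or PFOA5 replicate 1, 2 or 4 (adjusted p 0.057 to 0.096) and after a repeated quantile normalization (0.055).

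Cidec (also known as Fsp27), which drives droplets to fuse into large ones, rose in maternal PFOA5 from a level that was dim in controls. All maternal controls were dim, at 5.94, 6.05, 6.01, 5.89 and 5.95, and PFOA1 stayed dim at 5.88 to 6.28. PFOA5 read 8.12, 8.45, 7.76, 8.66 and 8.55, all above background and far from the controls. The fitted difference was 2.34 ± 0.28 (SE, adjusted p = 1.4e-06), which as a bound against the background is at least 1.62-fold.

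Under GenX, Cidec differed between dams of a group. In GenX2 replicate 1 was at 7.83 and the others at 5.74, 6.22, 6.28 and 5.91, and in GenX10 the values were 7.60, 6.71, 6.19, 6.55 and 7.14. In each GenX group 1 array was above background, and GenX10 did not overlap the controls. The GenX2 difference was 0.43 ± 0.28 (adjusted p = 0.46). The GenX10 difference was 0.87 ± 0.28 (0.039), a call that was lost on leaving out any control array (adjusted p 0.057 to 0.072) or GenX10 replicate 1 or 5 (0.14 and 0.091). Fetal Cidec was dim on all arrays, at 5.47 to 6.98, with differences between -0.14 and 0.39 and adjusted p of 0.46 to 0.95.

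Cidea, on chr18:67343564-67367794 and known from brown fat and from fatty liver, was called in maternal GenX10 and in no other exposed group. It was dim in maternal controls (6.91, 6.88, 6.78, 6.89 and 6.74), in PFOA1 (6.77 to 7.32) and in PFOA5 (6.86 to 7.36). GenX10 read 8.60, 8.77, 7.83, 7.19 and 8.46, above background on 4 of 5 arrays, with replicate 4 dim but still above the controls. The difference was 1.33 ± 0.23 (SE, adjusted p = 0.00030, at least 1.47-fold). The adipocyte marker Fabp4 was 1.59 higher in the same dams (adjusted p = 0.00022), above background on 3 of 5 arrays, while Adipoq and Plin1 were dim, and its part in the result was not tested. In GenX2 the values of 6.46, 7.09, 7.66, 7.63 and 7.43 spread across the control range and above it (0.41 ± 0.23, adjusted p = 0.38). The GenX2 array that was highest in Cidec, replicate 1, was the lowest of its group in Cidea. Fetal Cidea was dim on all arrays, at 6.10 to 6.65, with adjusted p of 0.13 or more.

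**Figure D4:**
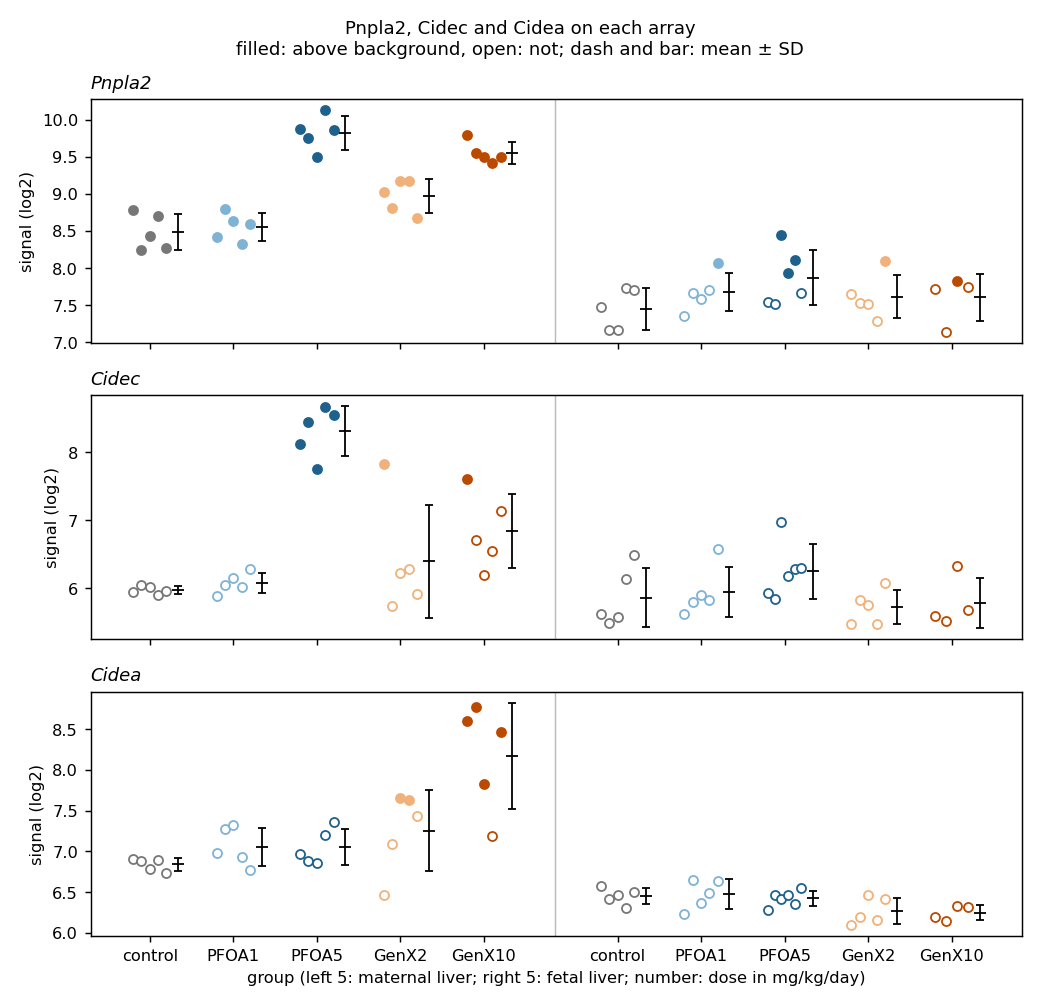
Signal (log2, vertical axis) of Pnpla2, Cidec and Cidea on each array of the 10 groups (horizontal axis; maternal left, fetal right); filled points are above background and the dash with bar is the mean ± SD. The 5 maternal PFOA5 arrays lie at 7.76 to 8.66 in Cidec and 6.86 to 7.36 in Cidea, and 4 of the 5 maternal GenX10 arrays are filled in Cidea.

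Cideb, the CIDE gene that hepatocytes express at rest and that serves lipoprotein loading, was above background on all 50 arrays. Maternal means ran from 9.54 to 9.79 and no maternal difference was called (adjusted p 0.19 to 1.0). Fetal means were 8.89 in controls and 9.19, 9.32, 9.46 and 9.33 in PFOA1, PFOA5, GenX2 and GenX10. The rise in GenX2, from 9.14, 8.50, 8.56, 9.20 and 9.06 to 9.30, 9.27, 9.40, 9.53 and 9.80, was 0.56 ± 0.16 (SE, adjusted p = 0.031), with no overlap. It was not called without control replicate 2 or 3 or GenX2 replicate 4 or 5 (0.078 to 0.090), without the arrays of conflicting labels (0.10) or dim Xist (0.074), with the source names followed (0.092), after a repeated quantile normalization (0.16) or in a fit of those groups alone (0.064). The differences of 0.43 in PFOA5 and 0.44 in GenX10 (adjusted p 0.15 and 0.10) were called with array weights (0.042 and 0.011), and that of GenX10 also without its replicate 2 (0.012), with median centring (0.040) and with the source names followed (0.038). Within fetal groups Cideb went with the negative control percentile at r = -0.56 (25 arrays), and its part was not tested.

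Between the doses of a compound, 4 genes were called in maternal PFOA5 against PFOA1 (18.7% of all genes were called), namely Cidec (2.23 ± 0.28, adjusted p = 6.8e-06, at least 1.63-fold since PFOA1 was dim), Pnpla2 (1.27 ± 0.12, 3.1e-07), Plin2 (1.2 ± 0.12, 3.1e-07) and Plin5 (0.68 ± 0.13, 0.00080). In maternal GenX10 against GenX2 Hilpda (0.93 ± 0.17, 0.012, at least 1.6-fold since GenX2 was dim) and Pnpla2 (0.58 ± 0.12, 0.040) were called, where 0.237% of all genes were. Hilpda lost that call without GenX2 replicate 2 (0.051), without GenX10 replicate 1 (0.064) and in a fit of those groups alone (0.23). Pnpla2 lost it without GenX2 replicate 2 or 5 or GenX10 replicate 1, 2, 3 or 5 (0.071 to 0.17), after either other array scaling (0.051 and 0.055) and in a fit of those groups alone (0.099). Cidea, 0.91 ± 0.23 higher in GenX10 than GenX2 (adjusted p = 0.13), was called without GenX10 replicate 4 (1.16, 0.0065). Hilpda in PFOA5 against PFOA1 was 0.45 ± 0.17 (adjusted p = 0.070), and was called without PFOA5 replicate 3 (0.044), with dim genes left out (0.043), with array weights (0.033) and in a fit of those groups alone (0.0071). G0s2 in the same comparison was 0.72 ± 0.30 (0.096) and was called without PFOA1 replicate 2 (0.93, 0.035).

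In fetal liver limma called 0 of the 10 genes between doses, with 0.0488% of all genes called for PFOA and 0% for GenX. At an unadjusted p under 0.05, 1 of the 10 and 2623 of all genes passed for PFOA, and 0 and 620 for GenX. The 1 was Plin2, 0.58 ± 0.12 higher in PFOA5 than PFOA1 (SE, adjusted p = 0.11), which was called with array weights (0.0054) or without PFOA5 replicate 1 (0.68, adjusted p = 0.0092). For GenX10 against GenX2 the fetal Plin2 difference was 0.04 with a 95% interval from -0.24 to 0.32, and that of Hilpda 0.06 with an interval from -0.32 to 0.44.

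Unexposed fetal and maternal livers differed in 4 of the 10 genes (62.2% of all genes were called). The fetal minus maternal difference of Pnpla2 was -1.04 ± 0.16 (SE, adjusted p = 4.3e-07), at least 1.51-fold lower in fetal liver, where it was dim. Plin2 differed by -0.92 ± 0.13 (4.2e-08) and Cideb by -0.66 ± 0.15 (0.00016), and none of the 3 overlapped. Cidea, dim in both tissues, differed by -0.39 ± 0.18 (0.055). Plin3 was 0.32 ± 0.12 higher (0.023) with overlapping arrays. That call was lost without maternal control replicate 3 or 5 or fetal control replicate 4 or 5 (0.055 to 0.13), after a repeated quantile normalization (0.076) and in a fit of those groups alone (0.078). The median over all genes was -0.13.

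Whether an exposure acted differently in the tissues was tested as the fetal minus the maternal effect, with arrays of dams and fetuses treated as independent since the labels do not pair them by name. For PFOA5 2 of 10 genes were called (4.47% of all genes), Cidec at -1.95 ± 0.36 (SE, adjusted p = 0.00033) and Pnpla2 at -0.92 ± 0.22 (0.0076). For GenX10 2 were called (2.04% of all genes), Cidea at -1.53 ± 0.26 (0.00015) and Pnpla2 at -0.90 ± 0.23 (0.024). All 4 were smaller in fetal liver. Pnpla2, Cidec and Cidea were dim in fetal controls, so the fetal effects rest on dim signals. The Pnpla2 difference under GenX10 had adjusted p of 0.052 to 0.11 without maternal control replicate 2 or 5, GenX10 replicate 1 of the dams or 2 of the fetuses, or fetal control replicate 4 or 5.

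At the low doses none of the 10 genes was called by limma in this test, against 0.179% of all genes for PFOA1 and 1.28% for GenX2. At an unadjusted p under 0.05, 2 and 3 of the 10 passed, and 1550 and 2795 of all genes. Plin2 had the larger fetal effect in both, by 0.74 ± 0.18 (adjusted p = 0.068) in PFOA1 and 0.58 ± 0.18 (0.12) in GenX2, and so had Hilpda, by 0.74 ± 0.25 (0.50) and 0.80 ± 0.25 (0.13). The Plin2 difference in PFOA1 was called with dim genes left out (0.028) or without maternal control replicate 2 (0.046), maternal PFOA1 replicate 5 (0.026) or fetal PFOA1 replicate 2 (0.033). In fits of the groups compared alone, Hilpda was called for PFOA1 (0.0057), and Hilpda (0.011) and Plin2 (0.047) for GenX2. At the higher doses the Plin2 effect differed by 0.12 (95% interval -0.24 to 0.47) for PFOA5 and 0.21 (-0.17 to 0.58) for GenX10.

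**Figure D5:**
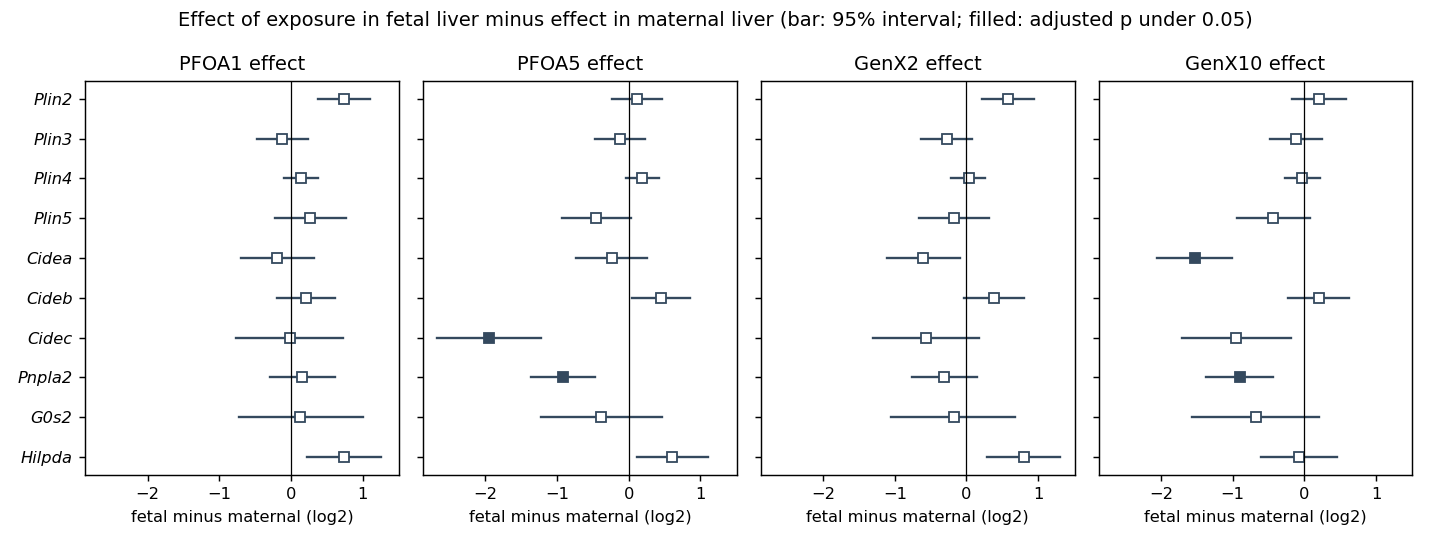
Effect of each exposure in fetal liver minus its effect in maternal liver (log2, horizontal axis) for the 10 genes (vertical axis), with 95% intervals; filled squares have an adjusted p under 0.05. Filled squares are Cidec and Pnpla2 for PFOA5 and Cidea and Pnpla2 for GenX10, all left of 0.

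Across the 25 maternal arrays Plin2 went with Pnpla2 (Pearson r = 0.93) and Plin5 (0.90), and with group means removed the values were 0.66 and 0.62. In the fetal arrays the highest such values within groups were between Plin5 and G0s2 (0.83), Cidec and Pnpla2 (0.82) and Plin5 and Cidec (0.79). Cidec was dim on all fetal arrays, and in fetal controls Pnpla2 was dim on all and Plin5 on all but 1. These fetal values therefore rest partly on dim signals. Within fetal groups Pnpla2, Plin5, Cidec and G0s2 also went with the array's negative control percentile (r = -0.63, -0.44, -0.42 and -0.29), and its part was not tested. These are descriptions over arrays that share the exposure groups.

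Among 5119 genes above background on at least 5 maternal arrays, those with the level pattern most like Plin2 were Pex19, Pex11a and Acot4 (each r = 0.98 over 25 arrays). Most like Pnpla2 were Dusp3, Psmd4 and Mdh2 (0.96), most like Plin5 Acot8, Pxmp4 and Galnt2 (0.94, 0.93 and 0.92), and most like Cidec Aldoa, Prss8 and Lonp1 (0.93). Closest to G0s2 were Tspo, Nceh1 and Map1lc3b (0.87, 0.86 and 0.85), to Hilpda Tor3a, Slc25a4 and Baiap2l1 (0.87, 0.85 and 0.84), and to Cidea Myo1c, Fads1 and Gadd45g (0.81, 0.79 and 0.79). Over 25 fetal arrays and 4291 genes, Cpt2, Cpt1b and Slc22a5 were most like Plin2 (0.98), and Ech1, Nceh1 and Ephx1 most like Hilpda (0.93, 0.92 and 0.90). Fetal G0s2 was closest to Fam136a, Ppcs and Ctif (0.87, 0.87 and 0.86), and fetal Cideb to Tecr, Higd2a and Cox6a1 (0.95, 0.91 and 0.91). Cidec, Hilpda and Cidea were dim on all maternal control and PFOA1 arrays, and Hilpda on all fetal controls. Their values therefore rest partly on dim signals. Group means were not removed, so every r in this paragraph includes the differences between exposure groups.

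Other droplet proteins were counted in a list of which 15 genes were analysed. In dams 6 rose and 1 fell in PFOA5, 3 rose in GenX2 and 6 in GenX10, and in fetuses 2, 2, 6 and 4 rose in PFOA1, PFOA5, GenX2 and GenX10. Of all genes 19.9%, 3.37% and 13.8% were called in these dams, and 0.953%, 3.39%, 6.73% and 9.28% in the fetal groups. The list's medians were 0.19, 0.12 and 0.21 in these dams. Hsd17b11, a droplet-bound short-chain dehydrogenase, rose in all 7 of those groups, by 2.49 ± 0.21 (SE) in maternal PFOA5 (adjusted p = 8.3e-09), 2.59 ± 0.21 in maternal GenX10 (9.5e-09) and 1.34 ± 0.18 in fetal PFOA1 (6.5e-05). Fitm2, which helps triglyceride bud into droplets, rose by 1.38 ± 0.17 in maternal PFOA5 (2.9e-06) and 1.47 ± 0.17 in maternal GenX10 (1.7e-06). The fetal minus maternal effect of Fitm2 was -0.86 for PFOA5 (adjusted p = 0.012) and -0.94 for GenX10 (0.014). Fitm2 was above background on 1 maternal control, 2 fetal PFOA5 arrays and no fetal control or fetal GenX10 array. Its differences therefore rest partly on dim signals.

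Of 11 other genes of lipolysis, 6 rose and 2 fell in maternal PFOA5, 4 rose in GenX2, and 6 rose and 1 fell in GenX10, with medians of 0.32, 0.23 and 0.31, where 19.9%, 3.37% and 13.8% of all genes were called. Mgll, monoglyceride lipase and the last step of triglyceride breakdown, rose by 1.41 ± 0.14 (adjusted p = 7.7e-08) in maternal PFOA5 and 1.50 ± 0.14 (4.8e-08) in GenX10. Lipe, hormone-sensitive lipase and also an adipocyte marker here, was 0.41 ± 0.06 higher in both (3.4e-05 and 4.8e-05) and was dim in maternal controls. Abhd5, the coactivator of the Pnpla2 lipase and named after its values were seen, was 0.29 higher in PFOA5 (0.047) and 0.43 higher in GenX10 (0.0068). In fetuses 3, 5, 4 and 4 genes of this list rose and none fell (0.953%, 3.39%, 6.73% and 9.28% of all genes were called). Ces1d, a carboxylesterase that hydrolyses triglyceride, led with 1.77 ± 0.19 in PFOA1 (1.6e-06) and 1.75 ± 0.20 in GenX10 (2.1e-06). Its fetal minus maternal effect was 1.49 for PFOA5 (adjusted p = 1.5e-05) and 1.44 for GenX10 (9.8e-05), where that of Pnpla2 was below 0.

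Among 15 genes of triglyceride synthesis and export, 8 rose and 1 fell in maternal PFOA5 and in GenX10, and 6 rose in GenX2 (19.9%, 13.8% and 3.37% of all genes were called). Lpin2, a phosphatidic acid phosphatase, rose by 1.47 ± 0.11 in maternal PFOA5 (adjusted p = 3.0e-09) and 1.52 ± 0.11 in GenX10 (3.0e-09), and Gpam, the mitochondrial glycerol phosphate acyltransferase, by 0.96 ± 0.13 in GenX10 (9.6e-06). In fetuses 2, 5, 4 and 4 rose, with medians of 0.07, 0.04, 0.01 and -0.01, where 0.953%, 3.39%, 6.73% and 9.28% of all genes were called. Mttp, which loads triglyceride on lipoproteins, rose by 1.19 ± 0.16 (3.1e-05) in fetal GenX10.

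Targets of PPARα counted as 11 of 12 analysed genes higher in maternal PFOA5, GenX2 and GenX10, 2 in maternal PFOA1, and 10, 10, 11 and 11 in the fetal groups. The shares of all genes called were 19.9%, 3.37%, 13.8% and 0.0325% in these dams and 0.953%, 3.39%, 6.73% and 9.28% in fetal PFOA1, PFOA5, GenX2 and GenX10. Ehhadh, the peroxisomal bifunctional enzyme, rose by 1.39 ± 0.20 in maternal PFOA1 (adjusted p = 0.0075) and 3.30 ± 0.13 in fetal PFOA1 (1.1e-14). Of 15 hypoxia targets, limma called 0 in each of the 4 fetal groups, a count near these shares of all genes, and 0, 1, 0 and 1 had an unadjusted p under 0.05 in PFOA1, PFOA5, GenX2 and GenX10. Of the same targets 2 rose and 1 fell in maternal PFOA5, a count near the share of 19.9% of all genes called there. In maternal GenX2 1 rose (3.37% of all genes were called), and in GenX10 3 rose and 1 fell (13.8%). In maternal PFOA5, GenX2 and GenX10 Bnip3 rose by 0.46 ± 0.09 (adjusted p = 0.0011), 0.34 ± 0.09 (0.048) and 0.49 ± 0.09 (0.00087). Among 11 transcription factors that act on droplet genes, 4 rose and 1 fell in maternal PFOA5 and in GenX10, 3 rose in GenX2, and 1, 4, 3 and 3 rose in the fetal groups. Shares of all genes called in these groups are those given above. Creb3l3, a liver regulator of fasting lipid genes, rose in all groups but maternal PFOA1, by 0.51 ± 0.06 in maternal PFOA5 (7.1e-07) and 1.04 ± 0.13 in fetal GenX10 (4.9e-06). Hif1a, a hypoxia-inducible factor gene, rose in fetal PFOA5 (0.43 ± 0.10, 0.011), GenX2 (0.48 ± 0.10, 0.0048) and GenX10 (0.54 ± 0.11, 0.0021), but was not called in fetal PFOA1. Epas1, another such gene, rose in fetal PFOA5 (0.57 ± 0.11, 0.0021) and maternal GenX10 (0.54 ± 0.12, 0.0046). The part of these 2 genes in the Hilpda result was not tested. Pparg, which drives Cidec in fat, differed by 0.90 ± 0.14 in maternal PFOA5 (3.5e-05), though dim on all arrays of both groups. The factor that fell was Ppargc1a, a coactivator of oxidative genes, at -0.63 in maternal PFOA5 (7.4e-05) and -0.41 in GenX10 (0.0077), also dim on all arrays.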

How the data were processed

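The deposited values are log2 signals of 50 arrays, 1 per liver, hybridised with RNA amplified and biotin labelled by an Affymetrix whole-transcript kit, per the labels. The tool named for making them is RMA and the build mm10, as the submitters' processing notes list them, and versions are not given in the sources used here. RMA subtracts background, normalizes by quantiles and summarises probes, so signals are relative, low levels are compressed and a shift of most genes is partly removed. No levels were compared between probes. Of 65956 transcript clusters, 31225 had 1 annotated gene, and the brightest probe of 365 genes with several was used (30751 genes). Groups follow the titles.

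Models were fitted with limma 3.58.1 (lmFit, eBayes) in R 4.3.3, 1 fit per tissue and 1 over all arrays for comparisons between tissues. Tests are two-sided with Benjamini-Hochberg adjustment over all genes, called under 0.05. Differences are log2, ± is the SE unless given as SD, and intervals are 95%. The number of arrays limits the precision. Scripts were tested on simulated data. A group whose arrays all lie at or below the 95th percentile of their negative controls has only a bound. For such a group "at least" folds use the mean of that percentile over its arrays.

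Members and gene lists were chosen with earlier results of these data known. All members are named. From each other list up to 3 called genes with the smallest adjusted p per comparison could be named, and the 3 genes with the highest r per called member. The maternal values of Abhd5 and the maternal GenX10 value of Ppargc1a fall outside that rule. Alternatives changed the moderation, dim-gene filter, scaling, array weights, probe summary, arrays in the fit, replicate block and labels. Sequences are from RefSeq (GRCm38.p6). Python 3.11.15, pandas 2.3.3, numpy 2.4.6, matplotlib 3.10.9 and the R package data.table (version 1.17.8) were used.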

Additional observations from a re-analysis of the deposited data

Results flagged for a closer look

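In 5 of 100 sets of arrays (10 genes in 10 groups) 1 array lay apart from the others of its group by Dixon's test at the 95% level, which chance gives in about 1 in 20. Cidec was 7.83 (log2) on maternal GenX2 replicate 1 against 5.74 to 6.28 on the others, and 6.58 on fetal PFOA1 replicate 5 against 5.61 to 5.89. Pnpla2 was 7.14 on fetal GenX10 replicate 2 against 7.72 to 7.82. Cideb was 9.10 on maternal PFOA5 replicate 3 against 9.57 to 9.75, and Hilpda 7.05 on maternal PFOA1 replicate 5 against 7.16 to 7.20, all dim.

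Of 40 differences between fetal and maternal effects, 4 passed limma's adjusted threshold. They were Cidec under PFOA5 (-1.95), Pnpla2 under PFOA5 (-0.92), Cidea under GenX10 (-1.53) and Pnpla2 under GenX10 (-0.90).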

How the results depend on the processing

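No difference of a member changed sign among those called. Of the 17 counts of called genes, the alternatives moved 6 by over 1.5 times. Maternal GenX2 fell from 2 to 1 after a repeated quantile normalization and in a fit of the groups compared alone. Maternal GenX10 against GenX2 fell from 2 to 1 after a repeated quantile normalization, median centring and with a replicate block, and to 0 in a fit of those groups alone. Fetal GenX10 rose from 2 to 4 with median centring, array weights, a replicate block and the source names followed. Fetal PFOA5 against PFOA1 rose from 0 to 1 with array weights. The PFOA1 effect between tissues rose from 0 to 1 with dim genes left out and in a fit of the groups alone, and the GenX2 effect to 2 in the latter. The cause was not tested. Leaving out 1 array gave 1 to 2 for maternal GenX2, 0 to 3 for maternal GenX10 against GenX2, 1 to 2 for fetal PFOA1, 0 to 1 for fetal PFOA5 against PFOA1, 0 to 1 for the PFOA1 effect and 1 to 2 for the GenX10 effect between tissues. Other member counts moved by less. Over all genes, leaving out dim genes took calls from 6113 to 3512 in maternal PFOA5, from 4234 to 2696 in maternal GenX10, from 5750 to 3169 between maternal PFOA doses, from 2853 to 1651 in fetal GenX10, from 19121 to 6037 between control tissues and from 10 to 24 in maternal PFOA1, where fewer genes were tested. Array weights gave 38, 9643, 2626, 54, 2891 and 941 in place of 10 (maternal PFOA1), 6113, 1037 (maternal GenX2), 15 (between fetal PFOA doses), 1376 (PFOA5 effect between tissues) and 626 (GenX10 effect). Fits of the groups compared alone gave 0, 597, 14, 1159, 1751, 9 and 260 in place of 10, 1037, 73 (between maternal GenX doses), 2070 (fetal GenX2), 2853, 15 and 393 (GenX2 effect). Following the source names gave 1260 in fetal GenX2, and a repeated quantile normalization 16 in maternal PFOA1. Leaving out 1 array gave 1 to 127 in maternal PFOA1, 702 to 2434 in maternal GenX2, 35 to 126 between maternal GenX doses, 5 to 25 between fetal PFOA doses, 1310 to 2016 in fetal GenX2, 1547 to 3994 in fetal GenX10, 2369 to 4320 in maternal GenX10 and 3639 to 6722 between maternal PFOA doses. The mean r of same-numbered deviations was -0.02 in maternal and 0.02 in fetal liver. Single pairs ran from -0.25 to 0.24 and from -0.54 to 0.59, so the mean cannot show whether some numbers share a block. Dams were not compared with fetuses in this way. With the replicate block, Pnpla2 in maternal GenX10 against GenX2 (adjusted p = 0.067) and Plin3 between control tissues (0.077) lost their calls. In fetal GenX10, G0s2 (0.025) and Cideb (0.049) gained one. Genes at or below the negative controls, Plin4 throughout and Cidea, Cidec, Hilpda and Pnpla2 in several groups, have only bounds.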
